A study of Mus musculus with 2 samples.

Results

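The clustered protocadherin genes are the genes on mouse chromosome 18 whose symbols start with Pcdha, Pcdhb or Pcdhg, and 57 of 21938 protein-coding genes in the GENCODE M21 annotation of mm10 (GRCm38) met that rule. They comprise 14 alpha, 22 beta and 21 gamma genes, and the gamma genes divide into 12 of type A, 6 of type B and 3 of type C. Open chromatin was measured by DNase-seq, which reads the cuts that DNase I makes in the DNA of isolated nuclei, in thymus tissue of female B6CASTF1/J mice aged 10 days. These are first-generation hybrids that carry a C57BL/6J and a CAST/EiJ set of chromosomes, and the labels give no treatment. The samples were 2 biological replicates from separately numbered females under a shared donor identifier, and they formed 1 group without a control. Comparisons were therefore made between gene groups within a library, with the spread of the 2 replicates, and no test between conditions was possible.

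Clustered protocadherins are adhesion proteins with cadherin repeats that pair with identical copies on a neighbouring cell. In neurons each cell switches on its own small set of them, which gives the cell a surface identity used in self-avoidance of dendrites and axons. In the alpha and gamma clusters each gene brings its own promoter and a long variable exon, which is spliced to constant exons shared by the whole cluster. The beta genes lack such constant exons. Most of the promoters share a conserved sequence element whose core is CGCT, and many are bound by CTCF and cohesin, which hold promoters and distal enhancers together. The C-type genes Pcdhac1, Pcdhac2, Pcdhgc3, Pcdhgc4 and Pcdhgc5 lie at the ends of the alpha and gamma clusters and follow a less random choice in neurons than the numbered genes. The family is known mainly from the nervous system and serves in a thymus as a set of promoters outside its best-known tissue.

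A library gave a list of peaks, regions cut more than their surroundings, each with a deposited height, and a list of footprints, short stretches within cut regions that are themselves spared. Replicate 1 had 132737 peaks with a median height of 0.625 and replicate 2 had 69798 with a median height of 0.828. The replicate 2 list was thus the shorter one and began at greater heights, with a 10th percentile of 0.353 against 0.203. The sources used here do not state the number of sequenced reads, so a gene without a peak is a gene not listed, and its chromatin may be open below the limit of the call. Markers of thymocytes had a peak at the start in 12 of 12 genes of both replicates. For other cells of the tissue the counts were 4 of 8 neuronal, 2 of 5 glial, 3 of 8 thymic epithelial and 2 of 4 endothelial genes in both replicates, and 4 and 3 of 6 fibroblast genes in replicates 1 and 2. Heights over the library's median reached 5.01 ± 1.88 at the neuronal gene Syp, 5.85 ± 0.247 at the glial gene Mbp, 10.5 ± 2.71 at the epithelial gene Ccl25 and 6.84 ± 2.10 at Aire (SD, n = 2 each). Pecam1 of endothelium stood at 4.75 ± 3.31 and Pdgfra of fibroblasts at 3.60 ± 1.21 (SD, n = 2 each). No start peak was listed at Snap25, Rbfox3, Stmn2 and Syt1, at Olig2 and Sox10, at Foxn1, Krt5, Krt8, Krt14 and Psmb11, at Cdh5 and Tek, or at Dcn and Lum, which mark these cell types in the same order. What part these cells have in the values that follow was not tested, and fewer cells with an open site cannot be told apart from a less open site per cell.

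The 3 clusters differed within each library: start peaks were listed mainly at gamma genes, and at few alpha or beta genes. A gene was counted as having a start peak where a peak of the larger deposited list lay within 500 bp of any of its annotated transcript starts. In replicate 1 this held for 21 of 57 members, against 63.4% of all protein-coding genes, and in replicate 2 for 4 of 57, against 57.8%. By cluster, the numbers in replicates 1 and 2 were 2 and 0 of 14 alpha genes, 4 and 0 of 22 beta genes, and 15 and 4 of 21 gamma genes. As means these were 1 ± 1.41 alpha, 2 ± 2.83 beta and 9.5 ± 7.78 gamma genes (SD, n = 2 each). The gamma shares, 71.4% in replicate 1 and 19.0% in replicate 2, thus lay on either side of the share of all genes. Gamma was the cluster with the most start peaks in either replicate, and which replicate is read decides how many. The 4 genes with a start peak in both replicates were all gamma genes, against 57.2% of all genes with one in both. A further 17 members had one in replicate 1 only, none in replicate 2 only, and 36 in neither. Among all genes, 1357 had a start peak in replicate 1 only and 132 in replicate 2 only.

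**Figure D1:**
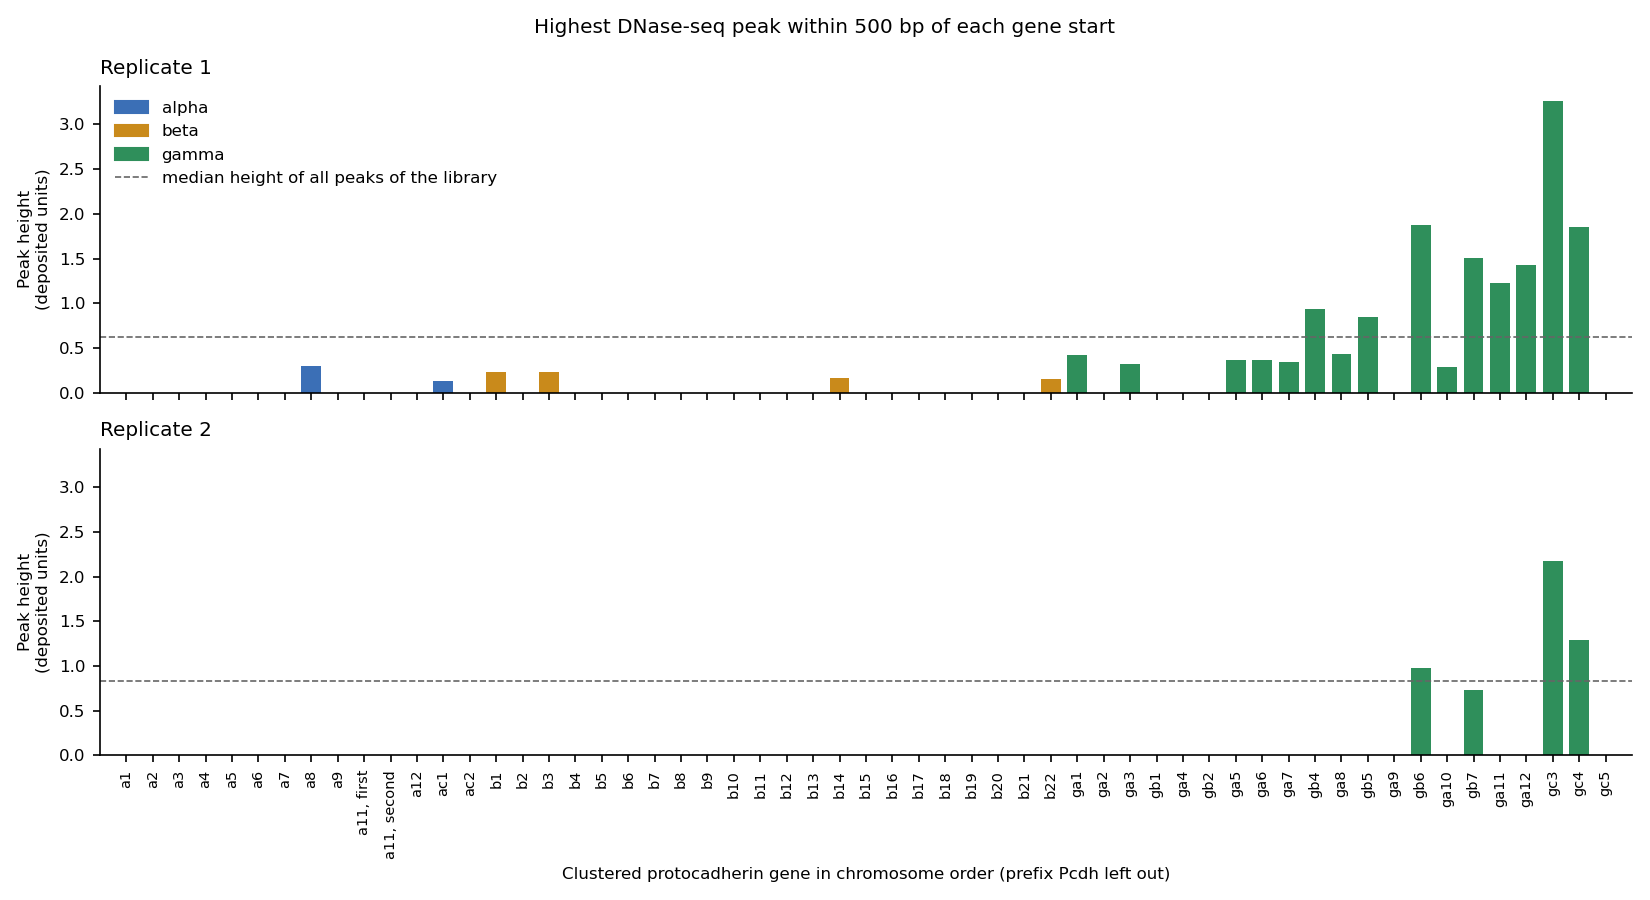
Height of the highest peak within 500 bp of a start for each of the 57 genes, in chromosome order, in replicate 1 (top) and replicate 2 (bottom). Each bar is 1 gene in 1 library, no bar means no peak, and the dashed line is the median height of all peaks of that library. The bars of the gamma genes rise to 3.27 in replicate 1, and the 4 bars of replicate 2 belong to Pcdhgb6, Pcdhgb7, Pcdhgc3 and Pcdhgc4.

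The strongest start of the family belonged to a C-type gamma gene. Pcdhgc3, an isoform with a role in the branching of cortical dendrites, had a start peak of height 3.27 in replicate 1 (chr18:37806241-37806440) and 2.18 in replicate 2 (chr18:37806221-37806480). That is 5.22 and 2.63 times the median height of the library (mean 3.93 ± 1.83, SD, n = 2), and it was the highest member in either animal. Among all genes with a start peak it still stood only at the 40.1st percentile in replicate 1 and the 30.6th in replicate 2, since such genes had a median height of 4.30 and 4.07. Pcdhgc4, the isoform that young inhibitory neurons need to survive, had heights of 1.85 and 1.29 in replicates 1 and 2, or 2.26 ± 0.992 times the median (SD, n = 2). Its highest peak was centred 301.5 and 291.5 bp after the first annotated start, inside the variable exon. Replicate 2 also listed a lower peak of height 0.655 nearer the start, centred 61.5 bp after it. Replicate 1 listed lower peaks of height 0.411 and 0.463, centred at -415 and 681.5 bp from that start. Pcdhgc5, the last gene of the cluster, had no peak in either library. The C-type genes thus split between an open pair and a gene without a peak a few kilobases away.

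Some type B genes reached heights near that of Pcdhgc4. Pcdhgb6 reached 1.87 in replicate 1 and 0.973 in replicate 2 (2.08 ± 1.28 times the median), and Pcdhgb7 reached 1.51 and 0.736 (1.65 ± 1.08, SD, n = 2 each). The replicate 2 peak of Pcdhgb7 was not in the smaller, stricter peak list. Pcdhgb4, with 0.938, and Pcdhgb5, with 0.845, were listed in replicate 1 only, and Pcdhgb1 and Pcdhgb2, at the 5′ side of the cluster, in neither. The type B genes with a start peak thus lay on the 3′ side of Pcdhgb1 and Pcdhgb2. A related entry, Pcdhgb8, is annotated as a polymorphic pseudogene and is no member, and a peak at its start had a height of 1.96 in replicate 1 and was not listed in replicate 2.

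The A-type genes were listed in replicate 1 alone, with 9 of 12 carrying a start peak there and 0 of 12 in replicate 2. Pcdhga12, the last of them, had the highest peak at 1.43, followed by Pcdhga11 at 1.23. The others were lower, from 0.284 at Pcdhga10 to 0.429 at Pcdhga8, with Pcdhga1 at 0.417, Pcdhga5 and Pcdhga6 at 0.371 each, Pcdhga7 at 0.347 and Pcdhga3 at 0.324. Pcdhga2, Pcdhga4 and Pcdhga9 had none. Apart from Pcdhga11 and Pcdhga12, these starts lay under the library's median height of 0.625. Of the first 6 gamma genes, Pcdhga1 to Pcdhgb2, 2 had a start peak in replicate 1. Of the following 15, Pcdhga5 to Pcdhgc5, 13 had one, beside 63.4% of all genes. The cut directly follows Pcdhgb1, Pcdhga4 and Pcdhgb2, which had no peak. These counts therefore describe the listing and are no separate support for a rise toward the 3′ side. Genes of types A and B alternate from Pcdhga7 to Pcdhga11, and in replicate 1 each of Pcdhgb4, Pcdhgb5, Pcdhgb6 and Pcdhgb7 stood above the A gene on either side of it. Those 4 type B starts also hold the most sequence repeated in the genome among the gamma starts (shares given with the alpha cluster). The part of this in their heights was not tested.

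The members seen in both animals were the highest ones of replicate 1. Their lowest height there was 1.51, at Pcdhgb7, while the 17 members listed in replicate 1 only ran from 0.133 to 1.43. Members seen in both and members seen in replicate 1 only thus did not overlap in replicate 1 height, which is a description without a test. How far such groups overlap among all genes was not computed, so this is not read as a trait of the family. Over all genes, 4825 had a replicate 1 start peak in the range of the gamma genes, from 0.284 to 3.27. Of these, 85.1% also had a start peak in replicate 2, and of the gamma genes 4 of 15 did. Heights within the range were not matched, so these shares are not set against each other. Where a gene had a peak in both replicates, the ratio of replicate 2 to replicate 1 was taken. It had a median of 0.811 among those of the 4825 genes and ran from 0.487 to 0.697 among the 4 gamma members. The ratio exists only for genes listed in both libraries, and the 4 members lie in the upper part of the range, so these ratios are not set against each other. Replicate 2 also had fewer peaks over the whole genome, and whether the animals or the libraries differ cannot be told apart with 1 library per animal.

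**Figure D2:**
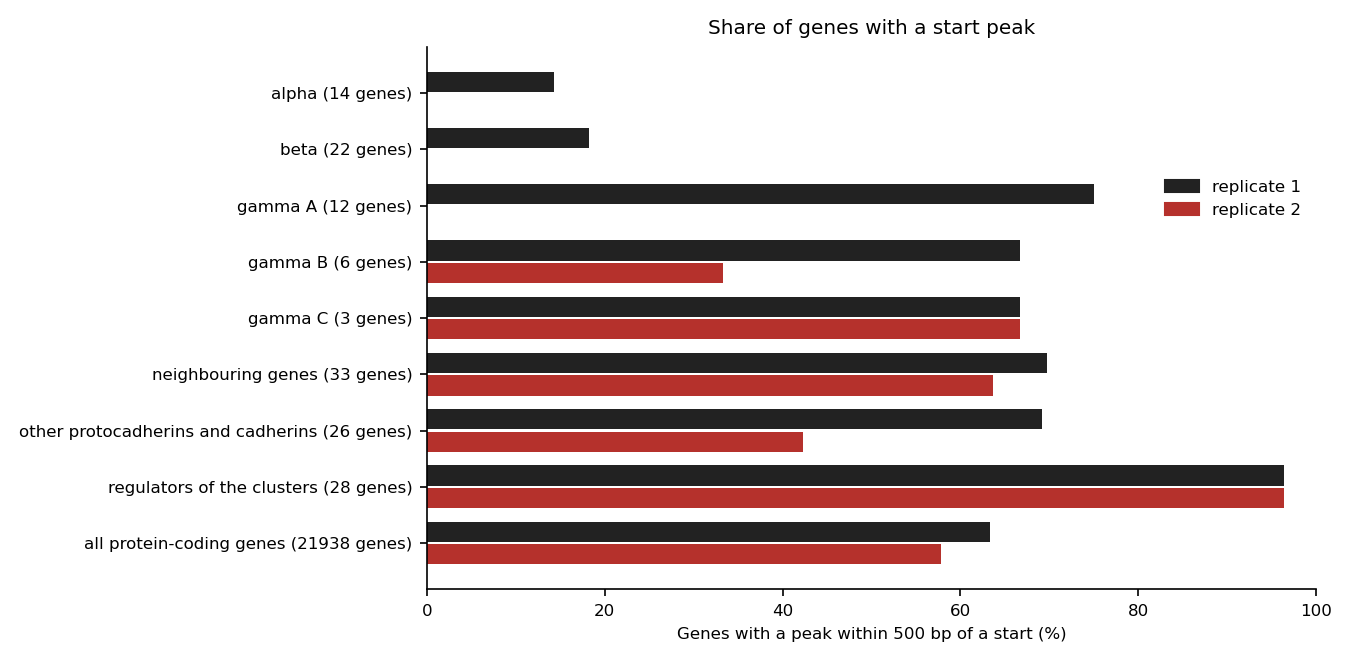
Percent of genes with a peak within 500 bp of a start, for the protocadherin groups, the other gene lists and all 21938 protein-coding genes, with 1 bar per replicate. The alpha, beta and gamma A rows have no replicate 2 bar, while the neighbouring genes and the regulators differ little between the bars.

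The alpha cluster, at chr18:36930184-37187661, was nearly bare. Its first gene, Pcdha1, had no start peak in either replicate, and neither did Pcdha2 to Pcdha7, Pcdha9, Pcdha12 or the 2 gene entries that share the symbol Pcdha11. The exceptions were listed in replicate 1 only. Pcdha8 had a peak of height 0.301, which began 450 bp after the start and so touched the window within the variable exon, and the C-type gene Pcdhac1 had one of 0.133 across the start. Pcdhac2, the last alpha gene, which spaces the axons of serotonin neurons, had none. Both heights lay under the median of the library, and that of Pcdhac1 stood at the 3.40th percentile of all its peaks. Most alpha starts hold sequence that is repeated in the genome. The median share of the 31-base words within 500 bp of a start that occur once in the genome was 78.5% in alpha. It was 100% in beta, 98.1% in gamma and 100% over all genes. How reads of such repeats were placed is not stated, and the part of this in the values of any cluster was not tested. The share was under 90% at 15 of 36 members without a replicate 1 start peak and at 4 of 21 members with one. The latter were the gamma genes Pcdhgb4, Pcdhgb5, Pcdhgb6 and Pcdhgb7, with 70.5%, 77.0%, 79.7% and 80.4%. Within alpha, 11 of 14 genes were under 90%, while Pcdhac1 and Pcdhac2 had 100% each and Pcdha8 had 90.1%.

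In the beta cluster, at chr18:37264938-37524479, 4 of 22 genes had a start peak in replicate 1 and 0 in replicate 2. Pcdhb1, the first gene, which stands somewhat apart from the others in sequence, had a height of 0.232 and Pcdhb3 one of 0.226. Those of Pcdhb14 and of Pcdhb22, the last gene, were 0.168 and 0.151, and the peak at Pcdhb22 also lay on the last exon of Pcdhb21. The remaining 18, namely Pcdhb2, Pcdhb4 to Pcdhb13 and Pcdhb15 to Pcdhb21, had none in either library. The beta heights ran from 0.151 to 0.232 in replicate 1, under the lowest gamma height of 0.284. Alpha and gamma overlapped in height at Pcdha8 alone, whose 0.301 exceeded Pcdhga10.

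The deposited intervals in which the cut rate passed a false discovery rate (FDR) of 0.05 reach lower than the peaks, and they gave the same order. In replicate 1 they touched the starts of 3 alpha, 8 beta and 15 gamma genes, against 64.8% of all genes. In replicate 2 they touched 0 alpha, 0 beta and 6 gamma genes, against 58.8%. The additional gamma genes of replicate 2 were Pcdhgb5, with 9 bp and a lowest FDR of 0.0441, and Pcdhga12, with 44 bp and 0.0315. The additional genes of replicate 1 were Pcdha9, Pcdhb6, Pcdhb10, Pcdhb12 and Pcdhb17, with a lowest FDR between 0.0185 at Pcdhb6 and 0.0400 at Pcdhb12. For Pcdhgc3 the lowest FDR was 4.03e-35 in replicate 1 and 1.06e-11 in replicate 2. Below the peak threshold, then, the lists still held no alpha or beta start in replicate 2.

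Over the whole locus the peaks gathered at its 3′ end. The gamma cluster, at chr18:37661793-37841873, held 27 peaks in replicate 1 and 9 in replicate 2, which is 15.0 and 5.00 per 100 kb. The alpha cluster held 3 and 0 and the beta cluster 4 and 0, or 1.17 and 1.54 per 100 kb in replicate 1, while all chromosomes together held 4.87 and 2.56. Within gamma, the 36.0 kb from Pcdhgc3 to the end had 27.8 and 16.7 peaks per 100 kb, and the 144.1 kb before it 11.8 and 2.08. The 100 kb before the alpha cluster held no peak in either library, and the 100 kb after the gamma cluster, where the gene Diaph1 lies, held 11 and 9. Of the peaks from the first alpha to the last gamma base, 11 of 38 in replicate 1 and 11 of 12 in replicate 2 overlapped a peak of the other replicate (28.9% and 91.7%), and over all chromosomes the shares were 43.2% and 83.2%.

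**Figure D3:**
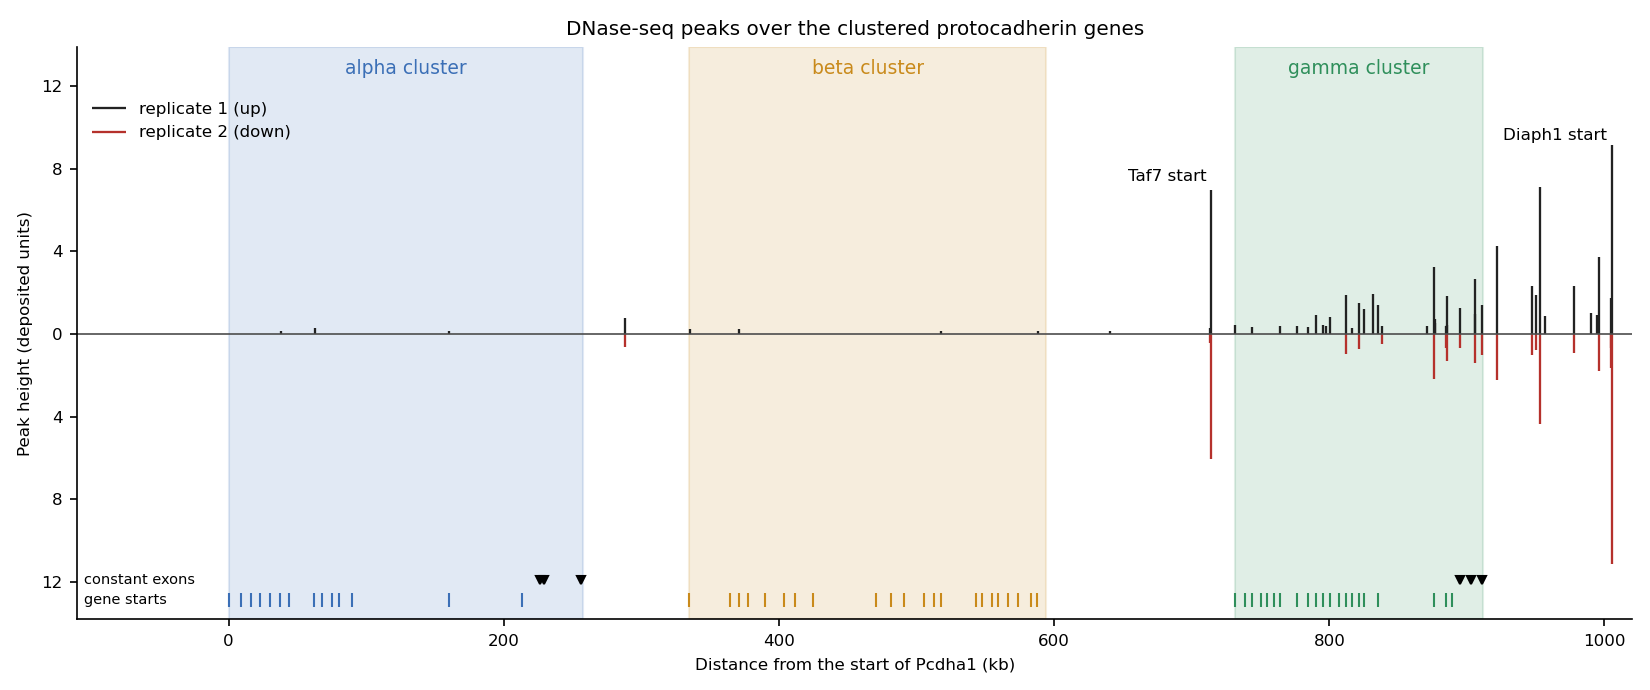
Peaks along the 3 clusters and 100 kb to either side, by distance from the start of Pcdha1, with heights of replicate 1 drawn up and of replicate 2 drawn down. Shaded blocks are the clusters, ticks are gene starts and triangles are constant exons. Lines are short or missing over alpha and beta and dense over the right part of gamma and over Diaph1.

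Outside the starts, the gamma cluster carried peaks at its constant region. Of its 27 and 9 peaks, 18 and 5 lay in the start window of a gamma gene, and 9 and 4 lay elsewhere. A peak over the first constant exon (chr18:37824941-37825140) had heights of 1.24 and 0.678, and a transcript of another annotated gene, Gm38182, also begins there. One in the intron before the last constant exon (chr18:37835681-37835880) had 2.66 and 1.39, and one in the last constant exon (chr18:37841361-37841580) had 1.40 and 0.991. Each of these was therefore listed in both animals, though the replicate 2 peak over the first constant exon was not in the smaller list. A further, lower peak in the intron before the last constant exon was listed in replicate 1 only. The peaks named here are thus a part of those at the constant region, and they are not set against the variable starts. In alpha, the constant exons carried no peak in either library. A peak within Pcdhga12 (chr18:37768161-37768375), at a start of the overlapping gene Gm26672, had 0.376 and 0.475. Among the gamma peaks seen in both it was the one with the greater deposited height in replicate 2. Over the median of the library it had 0.602 in replicate 1 and 0.573 in replicate 2, and its replicate 2 peak was not in the smaller list. DNase cuts carry no strand, so a peak over overlapping genes cannot be assigned to either.

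Between the clusters lay a small number of further sites. The interval from alpha to beta held 1 peak in each library (chr18:37218241-37218460 in replicate 1), with heights of 0.776 and 0.614 and with 7 and 2 footprints. This interval is known to hold an enhancer of the alpha genes, and whether the peak is that element was not tested. It was higher than any alpha or beta start in replicate 1 and was present in replicate 2, where these had no peak. Between beta and gamma, the start of Taf7, which encodes a subunit of the general transcription factor TFIID, had heights of 6.98 and 6.05, above every protocadherin start. Inside Diaph1, downstream of gamma, the peak at chr18:37883561-37883740 had 7.12 and 4.37 and that at chr18:37852221-37852400 had 4.24 and 2.21. The Taf7 start and the first of these downstream sites thus stood above every protocadherin start between them in both replicates.

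Footprints followed the peaks. Within 500 bp of the starts there were 2 and 0 footprints in alpha, 2 and 0 in beta and 64 and 15 in gamma (replicates 1 and 2), or a mean of 39.5 ± 34.6 in gamma (SD, n = 2). At least 1 footprint lay at 19 of 57 starts in replicate 1, against 60.7% of all genes, and at 4 of 57 in replicate 2, against 56.5%. Pcdhgc3 had the most in replicate 1 with 9, followed by Pcdhgb7 with 7 and Pcdhgc4 with 6. In replicate 2, Pcdhgc3, Pcdhgc4 and Pcdhgb6 had 4 each and Pcdhgb7 had 3. Among all genes with a start peak the median number was 9 in replicate 1 and 8 in replicate 2. The enzyme cuts some base contexts more readily, and no source used here says whether the footprint calls account for it.

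At the A and B genes most of the widest footprints lay shortly before the start. In replicate 1, 13 of these had a footprint, and in 12 the widest one lay wholly before the start, between positions -113 and -26 and with widths of 7 to 48 bp. Within that stretch their places differed, from -113 to -90 at Pcdhga1 to -41 to -35 at Pcdhga7, and the share of all genes with such a position was not computed. The exception was Pcdhga12, whose peak covered 221 to 420 bp after the annotated start and whose widest footprint lay at 310 to 339. Pcdhgb6 had the widest footprint of the family, 48 bp from -111 to -64 in replicate 1 and 46 bp from -109 to -64 in replicate 2. That of Pcdhgb7 ran from -76 to -50 (27 bp) and from -76 to -52 (25 bp). The 2 animals thus placed the same stretch of these promoters within a few bases. At the C-type genes the pattern differed: Pcdhgc3 had widest footprints of only 12 and 14 bp, at 6 to 17 and at 13 to 26 after the start, and the widest of Pcdhgc4 changed place between replicates.

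**Figure D4:**
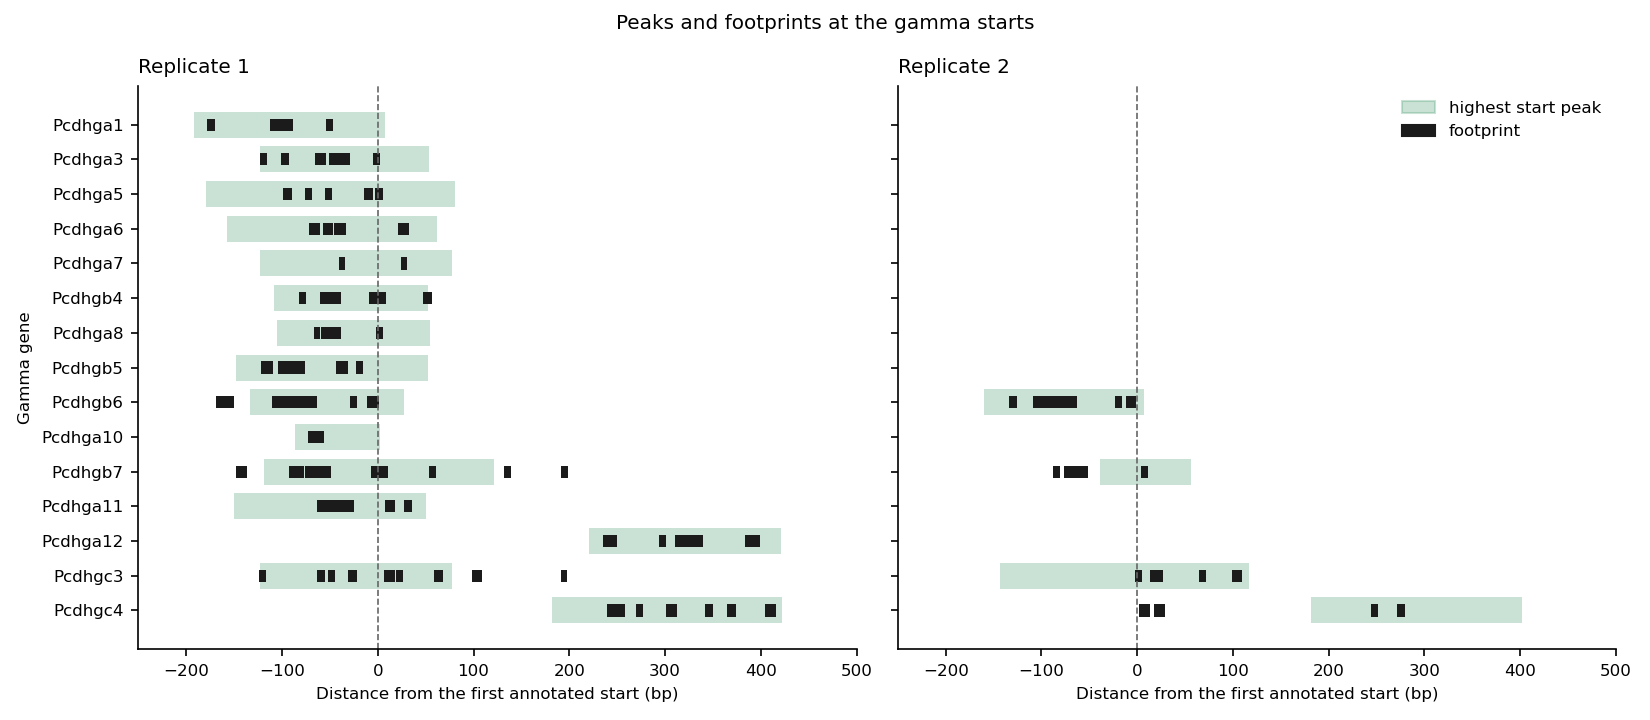
Extent of the highest start peak (green) and of all footprints within 500 bp (black) at the 15 gamma genes with a start peak in replicate 1, by distance from the first annotated start (dashed line), with replicate 2 on the right. Most wide footprints sit between -113 and -26 bp, those of Pcdhga12 and Pcdhgc4 lie after the start, and the wide footprint of Pcdhgb6 recurs in replicate 2.

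The letters CGCT, the core of the conserved element, were searched on both strands of the reference sequence. The widest footprint of a start held them in 10 of 15 gamma genes in replicate 1 (66.7%) and in 2 of 4 in replicate 2, while over all genes with a start footprint the shares were 27.9% of 13324 and 28.2% of 12403. The median width of these footprints in replicate 1 was 22 bp in gamma and 29 bp over all genes. Shares at equal width were not computed, so the part of width was not tested. The gamma footprints that held the letters included the wide ones of Pcdhgb6 and Pcdhgb7 in both replicates. Those at Pcdhgc3 and Pcdhgc4 did not hold them in either. In replicate 1, 9 of the 12 widest footprints lying wholly before the start at A and B genes held the letters. The one of Pcdhga12 also held them, but at 310 to 339 bp after the start. From 250 bp before to 50 bp after the first start, CGCT occurred in 14 of 14 alpha, 21 of 22 beta and 20 of 21 gamma genes, against 67.1% of all genes. Pcdhb22 and Pcdhga12 were the ones without it in this window. The letters were thus as common at the alpha and beta starts, where hardly any peak was listed, as at the gamma starts. A match describes the sequence and does not show a bound factor.

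In median GC content, though not in every measure below, the clusters lay nearer to each other than to all genes. The median GC content of the same window was 38.7% in alpha, 39.5% in beta and 42% in gamma, against 55% over all genes, and the gamma genes with and without a replicate 1 start peak had 42% and 41.5%. Pcdhgc3, with the strongest start, had 62%, and Pcdhac1, with a low peak in replicate 1 only, 60.7%. The ratio of observed to expected CpG had medians of 0.638 in alpha, 0.427 in beta and 0.540 in gamma, against 0.525. GGGCGG, the GC box, lay on either strand of this window in 2 alpha, 0 beta and 2 gamma genes, the latter Pcdhgc3 and Pcdhgc4, against 43.0% of all genes. The GC box count depends on the window: within 500 bp to both sides it lay at 13 of 14 alpha, 0 of 22 beta and 7 of 21 gamma starts, against 60.4% of all genes, so that alpha passed from below to above that share. CCGGAAG, an ETS-type site, lay in the shorter window at 0 alpha, 1 beta and 1 gamma gene, against 10.8%. None of these short motifs contains another. Most starts of the family were thus poorer in GC than the median gene, with Pcdhgc3 and Pcdhac1 above it.

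The CTCF consensus, with at most 1 mismatch and on either strand, was found at 0 of 57 starts in this window, against 4.76% of all genes. Within 500 bp to both sides it was found at 1 gene of each cluster, against 11.9%. In the peaks over all chromosomes it was found in 19.2% and 18.9%, and without a mismatch in 5.29% and 6.19%. In alpha, 2 of the 3 replicate 1 peaks held an exact match, in the variable exons of Pcdha6 and Pcdha8, and that of Pcdha8 lay under a footprint. With at most 1 mismatch, the peak between alpha and beta held 1, and of the gamma cluster peaks other than that at Pcdhga1, 3 of 26 in replicate 1 and 1 of 9 in replicate 2 held 1, including the last constant exon in both, each time under a footprint. In the 100 kb after gamma, 4 of 11 and 3 of 9 peaks held a match, each on the minus strand and under a footprint. The match between alpha and beta also lay on the minus strand, those in the alpha peaks on the plus strand, and those in the gamma peaks of replicate 1 on both. No pattern of strands is drawn from so few sites. A consensus search finds only part of CTCF sites, and nothing is drawn here about the starts without a match.

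The genes around the clusters were listed about as often as genes in general. Of 33 neighbouring protein-coding genes within 500 kb, 23 in replicate 1 and 21 in replicate 2 had a start peak, a mean of 22 ± 1.41 (SD, n = 2), beside 63.4% and 57.8% of all genes. The highest were Ankhd1, an ankyrin repeat protein, at 28.0 ± 0.969 times the median, the shared promoter of Ndufa2, a subunit of respiratory complex I, and Ik, a splicing factor, at 14.6 ± 4.42, Zmat2 at 14.1 ± 3.82, Diaph1, an actin nucleator, at 14.0 ± 0.826 and Fchsd1 at 13.3 ± 5.71. Those without a peak in either included Cd14, a coreceptor of monocytes, Dnd1, a germ cell factor, Slc25a2, a mitochondrial carrier, Eif4ebp3 and Pcdh12, a protocadherin of blood vessels. The list also holds 3 gene models that span members of the clusters, Gm42416, Gm37013 and Gm37388, none of which had a peak.

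Other members of the cadherin superfamily, which lie as single genes elsewhere, were listed in part. Of 26 such genes, 18 had a start peak in replicate 1 and 11 in replicate 2, each of the latter also in replicate 1, while 63.4% and 57.8% of all genes had one. The highest were the planar polarity genes Celsr2 and Celsr1, at 3.50 ± 1.79 and 2.74 ± 0.208 times the median, then Pcdh17 at 1.25 ± 0.523, Cdh1, which encodes E-cadherin, at 1.20 ± 0.367, Pcdh8 at 1.09 ± 0.468 and Pcdh9 at 0.933 ± 0.252 (SD, n = 2 each). None was found at Pcdh11x, Pcdh12, Pcdh15, Pcdh20, Fat2 or Cdh5, among others. Pcdhgc3, at 3.93 ± 1.83, was close to Celsr2, and the difference is smaller than the spread between the replicates. Pcdh1 and Pcdh12 belong to this list and to the neighbours.

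The factors known to act on clustered protocadherin promoters in other tissues had open starts. Of 28 genes, 27 had a start peak in both replicates, beside 57.2% of all genes, and Zfp57, a zinc finger protein of imprinted loci, had none. Among the highest were the cohesin genes Stag1 and Smc3, at 21.0 ± 2.65 and 19.2 ± 2.16 times the median, the maintenance DNA methyltransferase gene Dnmt1 at 16.3 ± 0.279, the Polycomb methyltransferase gene Ezh2 at 11.7 ± 0.266 and Ctcf at 11.1 ± 0.822 (SD, n = 2 each). Smchd1, a repressor of clustered protocadherins and of the inactive X chromosome, had heights of 4.81 and 5.30, or 7.04 ± 0.915 times the median, and was chosen after its value was seen. An open start does not give the amount or the activity of these proteins.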

How the data were processed

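DNase-seq of thymus gave, per library, a larger and a smaller peak list, footprints and intervals of low FDR, on mm10 per the README deposited with each sample, which also describes peaks made per library. The authors' signal in the peak lists is the peak height, in whole multiples of 1 step per library. The deposited interval lists hold an FDR (a q-value) under 0.05 throughout, and the constant 0.01 in the footprint lists was read as the threshold of the call by the authors. The aligner, the callers and their versions, the read numbers and the scaling of heights are not given in the sources used here. How well reads of CAST/EiJ origin map to the reference was not measured.

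From the larger list, the highest peak with at least 1 bp within 500 bp of any GENCODE M21 transcript start was taken per gene, in Python 3.11.15 with numpy 2.4.6. Heights are as deposited or over the median of the library. Sequence came from GRCm38.p6, after names and lengths of 21 chromosomes were compared with the files. Clusters run from the first to the last base of their members. Coordinates are 1-based. Counting was tested on simulated data.

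With 1 group of 2 replicates, values are given per replicate and as mean ± SD, with no test. Members and lists were chosen with earlier results of these data known. The rule for named genes took every member by its listing, and of the other lists up to 6 of the highest genes and up to 6 without a start peak. The values of some genes on these lists are not reported here. Alternatives were the window (250 bp, 1 kb), the smaller peak list, the first start only, equal numbers of highest peaks, joined peaks, a larger overlap, deposited heights, footprints within peaks and leaving out a replicate.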

Additional observations from a re-analysis of the deposited data

How the results depend on the processing

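Of 68 values under settings other than leaving out a replicate, 51 stayed within 1.5 times the main count or within the spread or interval of the main value. Among them were the 16 heights of Pcdhgb6, Pcdhgb7, Pcdhgc3 and Pcdhgc4. For these genes the windows of 250 bp and 1 kb returned the same heights as the main window. Deposited heights are on another scale than heights over the median, so their count as unchanged shows no stability. With the smaller peak list Pcdhgb7 nevertheless lost its replicate 2 peak, so that 3 gamma genes had a start peak in both replicates, and its mean height over the median fell from 1.65 to 1.21 ± 1.71 (SD, n = 2). The mean number of alpha start peaks per replicate, 1, became 0.5 with a window of 250 bp and 0.5 with the smaller peak list, and the beta number, 2, became 1 with the smaller list. With the 69798 highest peaks of each replicate, alpha and beta starts had 0, gamma starts 6 (from 9.5), the alpha and beta clusters 0 peaks and the gamma cluster 11.5 (from 18), and the shared percent of replicate 1 peaks was 56.3% (from 28.9%). At these equal numbers, gamma had 8 start peaks in replicate 1 and 4 in replicate 2, with the same 4 genes in both. The smaller list gave 0.5 peaks in the alpha cluster (from 1.5) and 1 in beta (from 2). Alpha footprints, 1 in the mean, became 0.5 within 250 bp and 2.5 within 1 kb. GC content of alpha, beta and gamma starts over all bases, 40.5%, 39.3% and 42.6%, became 46.7%, 41.5% and 47.5% within 500 bp to both sides. Leaving out a replicate gave 0 to 2 alpha, 0 to 4 beta and 4 to 15 gamma starts, 0 to 2 alpha, 0 to 2 beta and 15 to 64 gamma footprints, and 0 to 3 alpha, 0 to 4 beta and 9 to 27 gamma cluster peaks. Replicate 1 alone thus supplied every alpha and beta start peak and 11 of the 15 gamma ones. No paired analysis was possible because the samples form 1 group. Read depth is unknown, so a missing peak sets no upper limit on openness, and n = 2 limits every SD.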
